A study of Homo sapiens with 36 samples.

Results

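The comparison described here sets an inhibitor of stearoyl-CoA desaturase (SCD) against its solvent DMSO in 501mel, a human melanoma cell line of the pigmented, MITF-expressing kind. Its members are 6 of the 36 libraries of the series, taken by their labels: 3 labelled SCDi, from cells given the compound A939372 at 1 uM for 48 hours, and 3 labelled DMSO, from cells given the solvent for 48 hours. No genetic change was named for either group, and all cells grew in RPMI-1640 medium with 10% fetal bovine serum, which supplies fatty acids and cholesterol from outside. The series also holds the same inhibitor and solvent in a second melanoma line, IGR37, and SCD siRNAs at 20 nM with control siRNAs in both lines. RNA was read at the 3' ends of transcripts, so a gene's value is a count of transcript ends and says nothing of the enzyme's activity or of the lipids.

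SCD turns saturated fatty acids, made by the cell or taken up, into monounsaturated ones, and so sets the balance of saturated to monounsaturated chains in membranes and stored fat. Cells sense sterols and unsaturated fatty acids through SREBP transcription factors, which INSIG proteins hold in the endoplasmic reticulum when sterols are plentiful and which otherwise switch on cholesterol and fatty acid genes. Saturated chains in the membrane of the endoplasmic reticulum, amino acid shortage and other stresses act on kinases that phosphorylate eIF2, which favours translation of the transcription factor ATF4. ATF4 in turn switches on amino acid transporters, biosynthetic enzymes, tRNA synthetases and inhibitors of the growth kinase complex mTORC1.

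The 6 libraries held 4738589 to 6502417 gene reads, and 3 reads, taken as the limit that a count of 0 allows, were worth 0.461 to 0.622 CPM (library-scaled read counts) in them. Pearson's r of log2 levels across genes was 0.989 to 0.994 between libraries of a group and 0.982 to 0.991 between the groups. The 8 pigment cell markers were all present, with a summed level of 5585 to 5663 CPM under DMSO and 5733 to 5815 CPM with the inhibitor. Markers of other cells summed to 3.94 to 5.99 CPM for the 2 epithelial genes in the table, 4.14 to 7.33 CPM for the 4 fibroblast genes and 0 to 0.198 CPM for the 2 blood and endothelial genes, and none of them passed the test below. The labels do not say whether the libraries of a group came from separate cultures, so every p-value measures only the spread between these libraries.

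SCD (ENSG00000099194.5, hg38 chromosome 10, 100347124 to 100364834, plus strand), the enzyme's own gene, had log2 CPM values of 9.47, 9.33 and 9.50 under DMSO and 9.65, 9.73 and 9.79 with the inhibitor. The libraries with the inhibitor all lay above those with DMSO, but the difference of 0.29 ± 0.16 (SE, 95% interval -0.03 to 0.62) did not pass the test (limma adjusted p = 0.573). All libraries of the table share this fit's estimate of the spread. Of 18 alternative fits, SCD passed in 1 (limma adjusted p = 0.0438). That fit left out the 3 IGR37 libraries with the second SCD siRNA and was chosen after seeing the data. MITF, the transcription factor that directs the pigment cell lineage (ENSG00000187098.15, chromosome 3, 69739435 to 69968337, plus strand), had log2 CPM values of 9.25, 9.22 and 9.14 under DMSO and 9.23, 9.15 and 9.16 with the inhibitor. These ranges overlapped, and the difference of -0.02 ± 0.08 had a 95% interval of -0.19 to 0.14 (limma adjusted p = 0.979).

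With the inhibitor, 31 genes rose and 8 fell in 501mel at a limma adjusted p under 0.05, which was 0.232% and 0.0599% of the 13364 genes tested and 0.292% in all. The rises included stress genes downstream of ATF4 (SESN2, NUPR1, CHAC1, ATF3, DDIT4, ASNS, GDF15), genes of sterol and lipid supply (INSIG1, HMGCS1, LPIN1, FADS1), and genes of neither group (AKNA, TSC22D3, A2M, IL21R). Of the calls with more than 3 reads in both groups, 9 of 26 rises and 0 of 7 falls reached 2-fold. The other 6 calls rested on at most 3 reads in 1 of the groups. In each of the 39 genes the 3 libraries of 1 group lay outside the range of the other, as all libraries with the inhibitor lay above all with DMSO in 9.61% of tested genes and below them in 8.9%. The number of calls depended on which libraries estimated the spread. A fit of the 6 libraries alone called 8 genes, of which 3 were among the 39. Leaving out the 3 IGR37 libraries with the second SCD siRNA, a fit chosen after seeing the data, called 98, which included all 39. Without the third inhibitor library 17 genes were called, the lowest count with any 1 library left out. With each of the 6 libraries left out in turn, 12 of the 39 genes passed every time, among them GDF15, INSIG1, SESN2, NUPR1, DDIT4, RNF145, TSC22D3 and A2M. Another 8 passed in 0 of these 6 fits, among them SARS, FADS1, IER3, ETFB, ERGIC1, UBFD1 and ZMYM3, and HMGCS1, ATF4, ATF3 and CHAC1 passed in 3, 2, 2 and 1 of them.

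**Figure D1:**
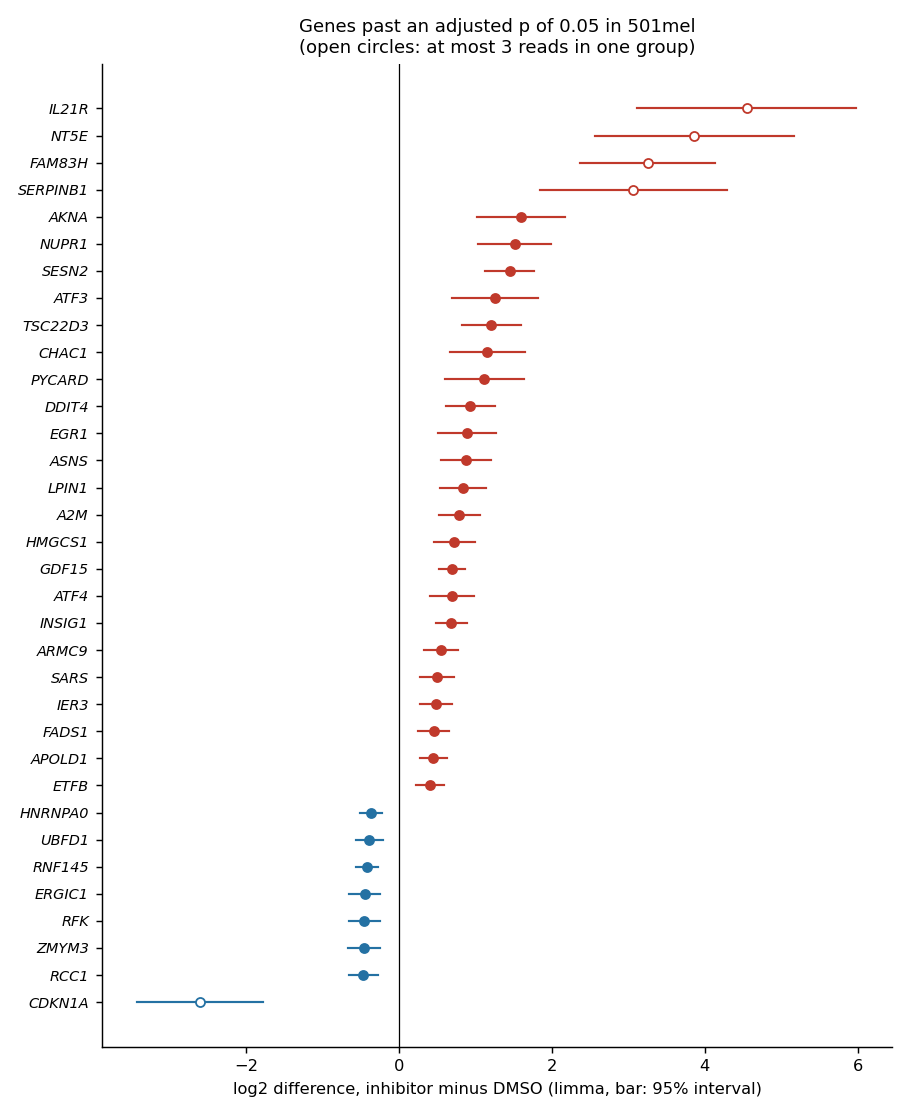
Log2 difference (inhibitor minus DMSO) with its 95% interval for the called genes that are named here in 501mel, rises in red and falls in blue, with open circles for genes that had at most 3 reads in 1 group. Apart from the open circles, the rises lie between 0.40 (ETFB) and 1.59 (AKNA) and the falls between -0.37 (HNRNPA0) and -0.47 (RCC1).

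The promoters of 4 genes are shown here because they belong to called rises and hold a letter match to the element that ATF4 and C/EBP partners bind (the C/EBP-ATF response element, or CARE). The search covered the 250 bases before each gene's RefSeq start (GRCh38.p14) for TGATGNAA on both strands. Each line gives the strand of the gene 5′ to 3′ with the match in capitals, which for CHAC1 is the reverse complement. ASNS lies on the minus strand at chr7:97872449-97872496, ATF3 on the plus strand at chr1:212565196-212565243, CHAC1 on the plus strand at chr15:40953242-40953289 and IL21R on the plus strand at chr16:27427133-27427180.
ASNS: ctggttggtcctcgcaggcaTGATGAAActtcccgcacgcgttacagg
ATF3: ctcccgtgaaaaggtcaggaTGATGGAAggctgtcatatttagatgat
CHAC1: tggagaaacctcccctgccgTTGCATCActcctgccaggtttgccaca
IL21R: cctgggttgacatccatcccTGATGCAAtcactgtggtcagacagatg

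These 4 were found among 21 called rises with a promoter in the table (19%), beside 155 of 10662 tested genes (1.45%) and 6 of 45 genes of the ATF4 lists (13.3%). The matches in the ATF4 lists include ASNS, ATF3 and CHAC1 themselves. None of the 7 falls with a promoter held it. A sterol regulatory element, searched as TCACNCCAC on both strands, was in 0 of the 21 rises and in 0.788% of tested genes. It was also in 0 of the 15 cholesterol synthesis enzymes with a promoter. A letter match describes the sequence and shows no binding, and the absence of a match says only that these letters are not in this window.

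Most genes of the ATF4 program had positive estimates, and 9 of them passed gene by gene. Of 61 measured genes in 5 lists of this program, 9 rose and 0 fell, 52 had an estimate above 0, 32 were higher and 1 was lower by an unadjusted limma p under 0.05, and the median difference was 0.29. Over all genes tested, 50.3% had an estimate above 0, the shares past that unadjusted p were 5.25% upward and 4.56% downward, and the median was 0.00. The summed level of the 61 genes was 7471, 7471 and 7491 CPM under DMSO and 8950, 9218 and 9163 CPM with the inhibitor. In 36 of the 61, all libraries with the inhibitor lay above all with DMSO, as in 9.61% of all genes tested. The 9 calls were 4 to 8 with 1 library left out (4 without the third inhibitor library), 5 with no variance trend, 1 with only the 6 libraries, and 2 and 0 with a replicate block on 12 and 6 libraries. With 1 library left out the median stayed between 0.28 and 0.30.

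ATF4 itself (ENSG00000128272.14, chromosome 22, 39519695 to 39522685, plus strand) had log2 CPM values of 8.78, 8.58 and 8.70 under DMSO and 9.28, 9.49 and 9.35 with the inhibitor. The groups did not overlap, and ATF4 rose by 0.69 ± 0.14 (limma adjusted p = 0.0188). NUPR1, a small stress-induced chromatin protein (chromosome 16, 28532708 to 28539174), went from 4.53, 4.05 and 4.55 to 5.74, 5.95 and 5.96. That rise of 1.51 ± 0.23 was the steepest in the program (limma adjusted p = 0.00152). ATF3, a stress-induced factor of the same leucine zipper family, went from 1.08, 0.83 and 2.00 to 2.20, 2.92 and 2.56, where the highest DMSO library came close to the lowest inhibitor library. Its rise was 1.26 ± 0.27 on 42 reads against 101 (limma adjusted p = 0.0411). These 3 were the called members of the 12 transcription factors and regulators, whose median was 0.51, with 11 estimates above 0.

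TRIB3, a pseudokinase that restrains ATF4, and DDIT3, which encodes CHOP, did not pass. TRIB3 stood at 6.84, 7.10 and 7.01 under DMSO and 7.48, 7.52 and 7.43 with the inhibitor (difference 0.49 ± 0.12, limma adjusted p = 0.0718). DDIT3 stood at 5.07, 5.22 and 5.01 against 5.78, 5.59 and 5.74 (0.60 ± 0.15, limma adjusted p = 0.101). Both sets of values were separated without overlap. Both passed in the fit chosen after seeing the data, without the 3 IGR37 libraries with the second SCD siRNA (limma adjusted p = 0.0209 for DDIT3). In that fit 18 of the 61 program genes rose. TRIB3 also passed under quantile normalisation.

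Among the 14 genes of the list of mTORC1 brakes and stress outputs, 4 rose and 0 fell, with a median of 0.28 that was 0.15 without the third inhibitor library and 0.14 with a pseudocount of 1. SESN2 encodes sestrin-2, a leucine sensor that restrains mTORC1 (ENSG00000130766.4, chromosome 1, 28259527 to 28282491, plus strand). Its log2 CPM was 4.06, 4.34 and 4.66 under DMSO and 5.81, 5.74 and 5.84 with the inhibitor. The groups were far apart, and the rise was 1.44 ± 0.15 (limma adjusted p = 1.55e-05, the lowest of all genes). DDIT4, which encodes the mTORC1 inhibitor REDD1, went from 6.35, 6.57 and 6.90 to 7.55, 7.58 and 7.47, a rise of 0.93 ± 0.16 (limma adjusted p = 0.00374). CHAC1, an enzyme that degrades glutathione, went from 3.73, 3.94 and 4.08 to 4.78, 5.21 and 5.22, a rise of 1.15 ± 0.24 (limma adjusted p = 0.0271). GDF15, a secreted stress cytokine (ENSG00000130513.6, chromosome 19, 18374731 to 18389176, plus strand), went from 9.09, 9.06 and 8.99 to 9.68, 9.75 and 9.80. Its libraries differed little within a group, and the rise of 0.69 ± 0.08 had a limma adjusted p of 6.05e-05. VEGFA, the vascular growth factor, had an estimate of 0.36 ± 0.13 that did not pass (limma adjusted p = 0.304).

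**Figure D2:**
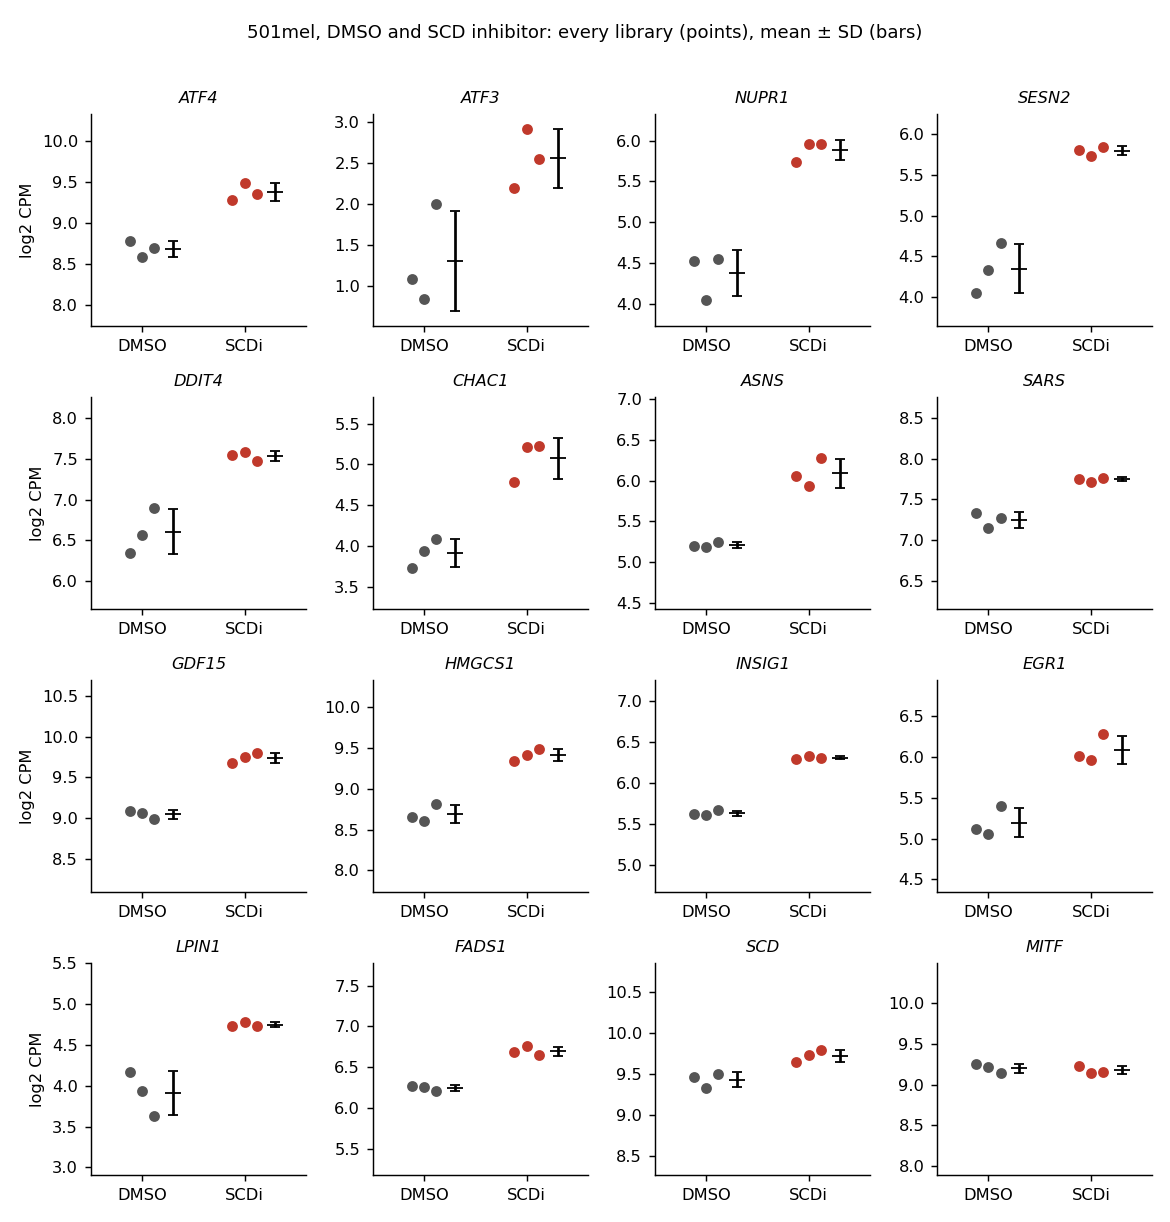
Log2 CPM of 16 genes in each of the 3 DMSO (grey) and 3 inhibitor (red) libraries of 501mel, with the mean and SD as bars and axes that span the same number of log2 units. In every panel but that of MITF the red points lie above all grey points, and SCD is the panel among those whose difference did not pass the test.

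The metabolic lists of the program held 2 of its 9 calls. ASNS, asparagine synthetase (ENSG00000070669.16, chromosome 7, 97852118 to 97872542, minus strand), was at 5.20, 5.18 and 5.25 under DMSO and 6.05, 5.94 and 6.28 with the inhibitor. It rose by 0.88 ± 0.16 (limma adjusted p = 0.00823) and was the called member among 13 amino acid and one-carbon enzymes, whose median was 0.23, with 10 estimates above 0. The serine synthesis enzymes PSPH and PHGDH had non-overlapping values and estimates of 0.55 ± 0.13 and 0.44 ± 0.11, with limma adjusted p of 0.0804 and 0.0877. All 13 tRNA synthetases of the list, which charge tRNAs with amino acids, had estimates above 0, with a median of 0.28. One of them rose: SARS, seryl-tRNA synthetase, went from 7.34, 7.15 and 7.27 to 7.75, 7.72 and 7.77 (0.49 ± 0.11, limma adjusted p = 0.0411). CARS, cysteinyl-tRNA synthetase, had an estimate of 0.41 ± 0.09 just outside the threshold (limma adjusted p = 0.0619). Of the 9 measured amino acid transporters, limma called 0 and 4 were higher at an unadjusted p under 0.05, with a median of 0.21 and all 9 estimates above 0. Among all genes tested 5.25% were higher at that unadjusted p and 50.3% had an estimate above 0. The largest transporter estimate, for the neutral amino acid carrier SLC38A2, was 0.38 ± 0.13 (limma adjusted p = 0.272).

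Genes of the other arms of the unfolded protein response had a median near 0. Of 22 genes of the IRE1-XBP1 and ATF6 response, limma called 0, 2 were higher and 1 was lower by an unadjusted p under 0.05, 12 had estimates above 0, and the median was 0.01. The shares among all genes tested were 5.25% higher, 4.56% lower and 50.3% above 0. HERPUD1, a component of degradation at the endoplasmic reticulum, stood at 6.77, 6.79 and 6.88 under DMSO and 7.13, 7.19 and 7.19 with the inhibitor (0.36 ± 0.08, limma adjusted p = 0.0645). Its groups did not overlap, and it passed under quantile normalisation (limma adjusted p = 0.0439). DNAJB9, a chaperone of the same compartment, had an estimate of 0.51 ± 0.18 (limma adjusted p = 0.307).

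Among genes of sterol control and cholesterol synthesis, INSIG1 and HMGCS1 rose and RNF145 fell. INSIG1, the sterol-regulated protein that retains SREBP in the endoplasmic reticulum (ENSG00000186480.12, chromosome 7, 155297776 to 155310235, plus strand), was at 5.62, 5.61 and 5.67 under DMSO and 6.30, 6.33 and 6.31 with the inhibitor. The 3 values of each group lay within 0.1 of each other, and INSIG1 rose by 0.68 ± 0.10 (limma adjusted p = 0.00114). HMGCS1, which makes the precursor that enters cholesterol synthesis (ENSG00000112972.14, chromosome 5, 43289395 to 43313512, minus strand), went from 8.66, 8.61 and 8.82 to 9.34, 9.41 and 9.49. It rose by 0.72 ± 0.13 (limma adjusted p = 0.00886). RNF145, a membrane ubiquitin ligase linked to sterol control (chromosome 5, 159157409 to 159210053), moved the other way, from 7.89, 8.01 and 7.94 to 7.53, 7.53 and 7.52. RNF145 fell by 0.42 on the log2 scale (SE 0.07, limma adjusted p = 0.00266), the lowest adjusted p among falls with more than 3 reads in both groups.

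Of the 20 cholesterol synthesis enzymes, 1 rose and 0 fell, 19 had estimates above 0 and 11 were higher at an unadjusted limma p under 0.05, with a median of 0.33. Over all genes tested 50.3% had an estimate above 0 and 5.25% were higher at that unadjusted p. Their summed level was 2486, 2598 and 2706 CPM under DMSO and 3053.5, 3192.5 and 3243.5 CPM with the inhibitor, without overlap. Besides HMGCS1, the estimates with the lowest p included those of ACAT2 (0.57 ± 0.15, limma adjusted p = 0.116) and FDPS (0.52 ± 0.16, limma adjusted p = 0.227). ACAT2 and FDPS passed when the 3 IGR37 libraries with the second SCD siRNA were left out, which made 3 called enzymes. That fit was chosen after seeing the data. In turn 0 enzymes were called with no variance trend, with only the 6 libraries, and without replicate 2 of DMSO, replicate 2 of the inhibitor or replicate 3 of the inhibitor. In the 8 genes of cholesterol uptake and transfer 1 rose and the median was -0.05, and in the 11 SREBP control genes INSIG1 rose, RNF145 fell and the median was -0.03. SREBF1 and SREBF2, which encode the SREBP factors, had estimates of 0.15 ± 0.12 and 0.07 ± 0.07 that did not pass (limma adjusted p = 0.757 and 0.851). Among 10 LXR receptors and targets, which serve sterol export, limma called 0, 3 were higher at an unadjusted p under 0.05, and the median was 0.38. That median was 0.11 without the third inhibitor library, 0.24 without the first DMSO library and 0.10 with a pseudocount of 1. Of the 10, APOE and APOC1, neighbouring apolipoprotein genes, had estimates of 0.38 ± 0.17 and 0.46 ± 0.21 (limma adjusted p = 0.437 and 0.456).

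Fatty acid genes beyond SCD gave 2 rises. FADS1, a desaturase of polyunsaturated fatty acid synthesis (chromosome 11, 61799625 to 61829318, minus strand), went from 6.27, 6.26 and 6.20 to 6.68, 6.76 and 6.65. It rose by 0.45 ± 0.10 (limma adjusted p = 0.0426) and was the called member of the 6 measured desaturases, whose median was 0.17 (0.06 without the first inhibitor library). FADS2, which can also desaturate saturated chains, was at 2.95, 2.77 and 2.49 against 3.34, 2.73 and 2.80, overlapping, with an estimate of 0.22 ± 0.28 (limma adjusted p = 0.87). LPIN1, a phosphatidate phosphatase of glycerolipid synthesis (ENSG00000134324.11, chromosome 2, 11677595 to 11827409, plus strand), went from 4.18, 3.94 and 3.63 to 4.73, 4.78 and 4.74. The inhibitor libraries were tight and the DMSO libraries spread, and LPIN1 rose by 0.83 ± 0.15 (limma adjusted p = 0.00619) as the called member of 17 phospholipid and triglyceride genes (median 0.09). In the 19 genes of fatty acid synthesis, elongation and activation limma called 0 and 1 was higher at an unadjusted p under 0.05, with a median of -0.02. Among all genes tested 5.25% were higher at that unadjusted p. FASN, fatty acid synthase, had an estimate of -0.21 ± 0.10 (95% interval -0.42 to 0.00, limma adjusted p = 0.526). In the 20 genes of lipid droplets, fatty acid binding and oxidation limma called 0 and 1 was higher at an unadjusted p under 0.05, with a median of 0.13. That gene was HADHA, of mitochondrial fatty acid oxidation (0.31 ± 0.09, limma adjusted p = 0.184).

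Other rises with more than 3 reads in both groups belonged to no single list. TSC22D3, a leucine zipper gene induced by glucocorticoids and FOXO factors, went from 1.56, 1.67 and 1.54 to 2.38, 3.12 and 2.89 (1.21 ± 0.19, limma adjusted p = 0.00184). It was the called member of 21 FOXO targets, whose median was 0.07. AKNA, an AT-hook protein, went from 1.08, 1.50 and 1.01 to 2.63, 2.64 and 3.09 (1.59 ± 0.28, limma adjusted p = 0.00619), on 37 reads against 119. A2M, a secreted protease inhibitor, went from 2.91, 3.18 and 2.96 to 3.97, 3.72 and 3.71 (0.79 ± 0.13, limma adjusted p = 0.00374). Groups were separate in all 3 genes, while AKNA and TSC22D3 were at low levels where log2 differences are less precise.

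EGR1, an immediate early transcription factor, went from 5.12, 5.06 and 5.40 to 6.01, 5.96 and 6.28 (0.89 ± 0.18, limma adjusted p = 0.0269). IER3, an immediate early stress gene, went from 9.99, 10.08 and 10.02 to 10.39, 10.57 and 10.55 (0.48 ± 0.10, limma adjusted p = 0.0411). These 2 were the called members of 23 immediate early and MAPK feedback genes, whose median was 0.03, and IER3 was also the called member of 21 NF-kB and inflammatory genes (median 0.06). APOLD1 and ARMC9 rose by 0.45 ± 0.08 and 0.55 ± 0.11, with limma adjusted p of 0.013 and 0.0174. ETFB, a subunit of the mitochondrial electron transfer flavoprotein, rose by 0.40 ± 0.09 (limma adjusted p = 0.0411). PYCARD, the inflammasome adaptor ASC, had the adjusted p nearest the threshold: 0.77, 1.31 and 0.17 under DMSO against 1.68, 2.13 and 1.78, a rise of 1.12 ± 0.25 on 28 reads against 61 (limma adjusted p = 0.0489).

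Rises and falls of genes with almost no reads in 1 group are given by their reads. IL21R, an interleukin receptor gene, had 0 reads in the 3 DMSO libraries and 18 with the inhibitor, present in all 3, which is at least 5.75-fold higher against 3 reads over the group. NT5E, the ectonucleotidase CD73, had 0 reads against 14, at least 4.47-fold higher. SERPINB1, a protease inhibitor, had 2 against 13 reads (ratio 6.23, counting interval 1.41 to 56.8), and FAM83H 1 against 12 (ratio 11.5, interval 1.70 to 491). CDKN1A, the cell cycle inhibitor p21, had 4 reads under DMSO and 0 with the inhibitor, at least 1.39-fold lower. The antisense gene MSC-AS1, 0 against 6 reads, was at least 1.92-fold higher, but the strand setting of the counting is not given in the sources used here. With a pseudocount of 1, and with voom on the recovered reads, 0 of these 6 genes passed. NT5E was the called member of both the dedifferentiated and invasive melanoma list (23 genes, median 0.13, with 0.06 to 0.24 when 1 library was left out) and the YAP-TEAD list (13 genes, median 0.05), and CDKN1A that of the 19 p53 and cell death genes (median -0.02). The pseudogene FAM86B3P, which shares sequence with its gene family, and LOC374443 were the other called rises, both named here after their values were seen.

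The 7 falls with reads in both groups were small, with log2 differences of -0.37 to -0.47. RCC1, the exchange factor of the Ran GTPase, went from 8.15, 8.47 and 8.42 to 7.90, 7.83 and 7.90 and fell by 0.47 (SE 0.09, limma adjusted p = 0.0174). ERGIC1, a cycling protein between endoplasmic reticulum and Golgi, went from 8.32, 8.39 and 8.36 to 7.87, 7.85 and 7.97 and fell by 0.45 (SE 0.10, limma adjusted p = 0.0426). RFK, which phosphorylates riboflavin, and the zinc finger gene ZMYM3 both fell by 0.46 (SE 0.10 for each), with limma adjusted p of 0.0355 and 0.0411. HNRNPA0, an RNA-binding protein, fell by 0.37 (SE 0.07, limma adjusted p = 0.0138), and UBFD1 by 0.39 (SE 0.09, limma adjusted p = 0.0426). With RNF145 these make up the falls, and none was a member of the pigment or DNA replication lists.

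Lineage and DNA replication genes had medians near 0, and G2 and mitosis genes lay slightly below it. Of 30 MITF and pigment cell genes limma called 0, 1 was lower at an unadjusted p under 0.05, and the median was 0.03, with a summed level of 12334 to 12810 CPM under DMSO and 12485 to 12619 CPM with the inhibitor. Of 31 DNA replication and S phase genes limma called 0, 1 was lower at an unadjusted p under 0.05, and the median was -0.01. Among all genes tested 4.56% were lower at that unadjusted p and 50.3% had an estimate above 0. Of 28 G2 and mitosis genes RCC1 fell, 20 had estimates below 0, and the median was -0.09. All libraries with the inhibitor lay below all with DMSO in 7 of the 28 and above them in 3, beside 8.9% and 9.61% of all genes. The summed level of the 28 was 4688, 4855 and 4718 CPM under DMSO and 4395, 4546 and 4389 CPM with the inhibitor, without overlap. UBE2C, the ubiquitin-conjugating enzyme of mitotic exit, was at 8.11, 8.41 and 8.21 against 7.86, 7.83 and 7.82, without overlap, and did not pass (-0.41 ± 0.15, limma adjusted p = 0.341).

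Ribosomal protein genes had mostly small positive estimates, and none passed. Of 32 cytosolic ribosomal protein genes limma called 0, 13 were higher and 0 were lower by an unadjusted p under 0.05, 29 had estimates above 0, and the median was 0.20. Over all genes tested 5.25% were higher and 4.56% lower by that unadjusted p, and 50.3% had an estimate above 0. Their summed level was 47012, 46593 and 47756 CPM under DMSO and 51768, 54105 and 52118 CPM with the inhibitor. RPL32, of the large subunit, was at 9.69, 9.66 and 9.58 against 9.91, 9.90 and 9.85, without overlap (0.24 ± 0.08, limma adjusted p = 0.224). Many of these genes have near-identical processed copies, which the authors' counting could split. The 17 translation factors whose mRNAs share the ribosomal type of start had 0 called and 0 at an unadjusted limma p under 0.05, with 16 estimates above 0 and a median of 0.13.

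In 29 hypoxia and glycolysis genes limma called 0, 5 were higher and 1 was lower by an unadjusted p under 0.05, and the median was 0.16. Among all genes tested 5.25% were higher and 4.56% lower by that unadjusted p. The glucose transporter SLC2A3 came nearest, at 5.76, 5.70 and 5.48 against 5.94, 6.12 and 6.18 (0.43 ± 0.10, limma adjusted p = 0.0781). Of 23 interferon response genes limma called 0, 1 was higher and 1 was lower by an unadjusted p under 0.05, and the median was 0.00. OAS1, an antiviral synthetase, had 21 reads under DMSO and 6 with the inhibitor (limma adjusted p = 0.0619). SLC2A3 and OAS1 both passed without the 3 IGR37 libraries with the second SCD siRNA, the fit chosen after seeing the data. In the lists of NRF2 and oxidative stress (20 genes, median 0.01), oxidative phosphorylation (28, median 0.07), MYC and ribosome biogenesis (20, median 0.06), lysosome and autophagy (28, median 0.07) and heat shock chaperones (17, median -0.02), limma called 0. At an unadjusted p under 0.05 these 5 lists held 1, 2, 1, 2 and 0 higher genes and 1, 1, 2, 1 and 1 lower genes, in that order. Each list with 0 called genes also had 0 under the voom fit of recovered reads, and no mitochondrially encoded transcript was measured.

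**Figure D3:**
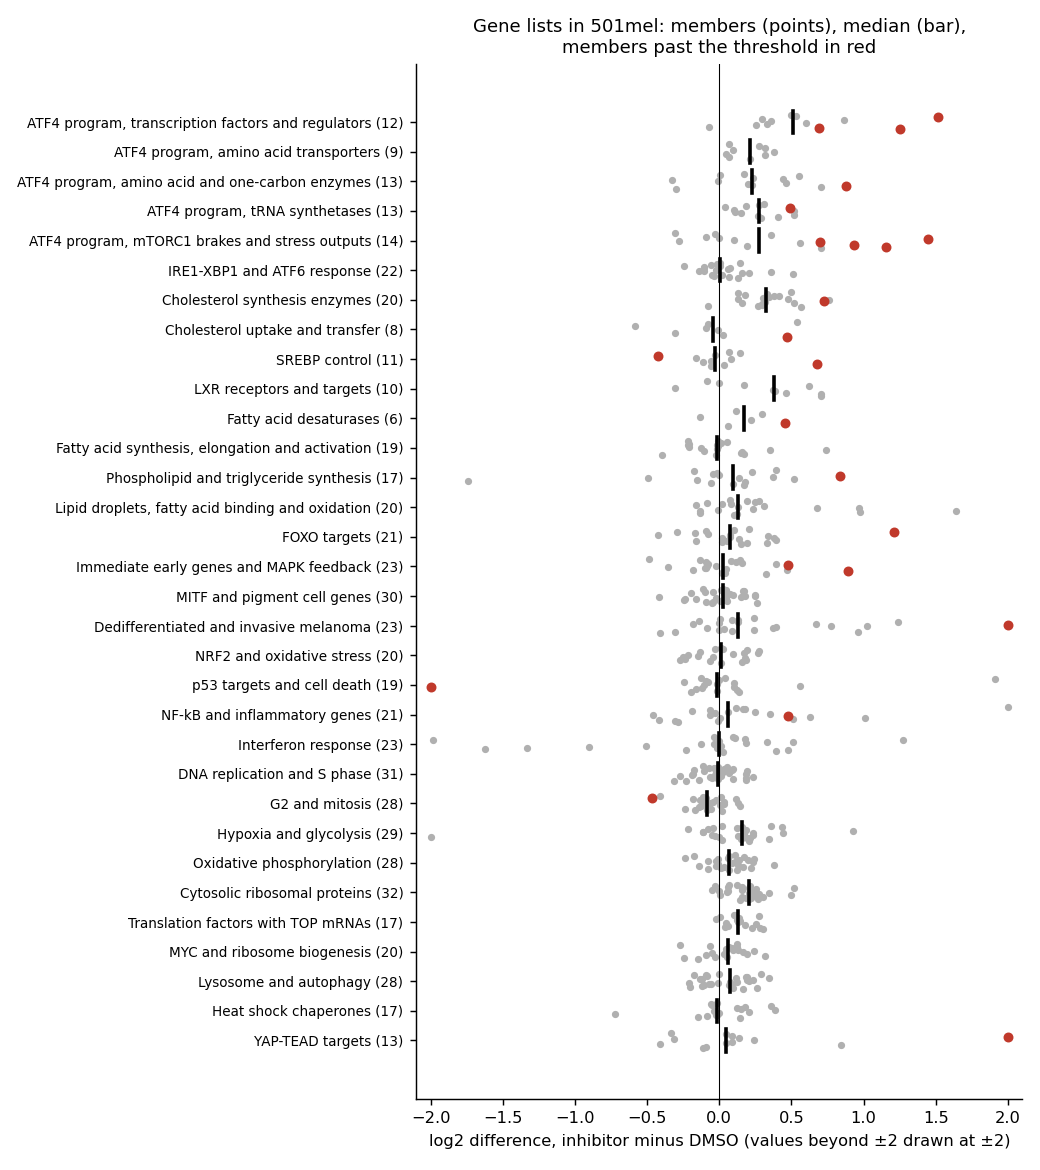
Log2 difference (inhibitor minus DMSO) of each measured member of 32 gene lists in 501mel, called members in red the list's median as a black bar and values beyond 2 log2 units drawn at the edge, with the number of members in brackets. The bars of the ATF4 lists (0.21 to 0.51), cholesterol synthesis (0.33) and ribosomal proteins (0.20) lie right of 0, while those of DNA replication (-0.01) and pigment cell genes (0.03) lie at it.

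The same inhibitor at the same dose and time changed far more genes in IGR37, which has its own DMSO libraries: 20.9% of genes rose and 23.1% fell (44.1% in all) at a limma adjusted p under 0.05. Among 6682 genes above the median level, the central 95% of log2 differences ran from -0.32 to 0.39 in 501mel and from -1.24 to 1.34 in IGR37, and 5 against 735 genes differed by at least 2-fold. Pearson's r between both sets of differences across these genes was 0.291, given as a description since genes are not independent. Of the 31 rises in 501mel, 21 (67.7%) also rose in IGR37 and PYCARD fell, and of the 8 falls 5 (62.5%) also fell and CDKN1A rose. The 21 were 0.751% of the genes that rose in IGR37.

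The test of the difference between the lines passed for 27.6% of all genes (12.3% with a higher effect in IGR37, 15.3% with a lower one) and for 26 of the 39 called in 501mel. Among the 31 rises, 13 were larger in IGR37 and 8 were smaller there or reversed. The 39 were chosen by their 501mel effect, which enters this difference, so these counts cannot be read against the shares over all genes. In the ATF4 program 52 of the 61 genes rose and 5 fell in IGR37, beside 20.9% and 23.1% of all genes. The median there was 1.63, and 50 of the 61 had an effect called higher than in 501mel. ASNS rose by 4.34 ± 0.16 in IGR37, which exceeded the 501mel rise by 3.47 (limma adjusted p = 2.75e-11). SESN2 reached 8.22, 8.17 and 8.20 in IGR37 from 4.67, 4.65 and 4.80, a rise of 3.49 that exceeded the 501mel rise by 2.05 (limma adjusted p = 1.35e-07). The DMSO ranges of both genes overlapped between the lines.

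INSIG1 had an estimate of 0.23 in IGR37 that did not pass (limma adjusted p = 0.0644), and its rise in 501mel was larger by 0.45 (limma adjusted p = 0.0173). HMGCS1, LPIN1 and FADS1 had differences between the lines of -0.32, -0.52 and 0.14 that did not pass. Of the 20 cholesterol synthesis enzymes, 7 rose and 6 fell in IGR37 (median -0.09), beside 20.9% and 23.1% of all genes. By the test of the difference 7 of the 20 had a lower effect than in 501mel and 1 a higher one, beside 15.3% and 12.3% of all genes. MITF fell by 0.92 in IGR37, from 9.02, 9.12 and 9.16 to 8.19, 8.11 and 8.26, and this differed from 501mel by -0.89 (limma adjusted p = 1.78e-06). Of the 30 pigment cell genes 20 fell in IGR37, and of the 31 DNA replication genes 29 fell, beside 23.1% of all genes. In 501mel 0 of each list fell, beside 0.0599% of all genes.

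Lowering SCD mRNA in 501mel itself gave a second view of the same enzyme, with control siRNA libraries that the inhibitor comparison does not share. With the siRNA siSCD_2, SCD went from 9.23, 9.49 and 9.36 to 5.05, 4.95 and 5.09, and 18.3% of genes rose and 19.5% fell (37.9% in all). Of the inhibitor's 31 rises, 17 (54.8%) rose with siSCD_2, 9 did not pass and 5 fell, among them APOLD1, GDF15, IER3 and MSC-AS1. Of the 8 falls, 5 (62.5%) fell with it. SESN2 and NUPR1 rose by 2.12 and 2.73 with siSCD_2, and INSIG1, HMGCS1 and LPIN1 by 1.03, 1.43 and 1.42. GDF15 went against its rise with the inhibitor and fell by 0.94 (limma adjusted p = 1.53e-09). The difference between the inhibitor and siSCD_2 effects passed for 21% of all genes (11.5% with a higher effect of the inhibitor, 9.51% with a lower one). Among the 31 rises 14 had a higher effect with the inhibitor and 4 (SESN2, NUPR1, LPIN1 and HMGCS1) a lower one. The 31 were chosen by the same inhibitor and DMSO libraries that enter this difference. That choice favours a higher effect of the inhibitor, so these counts cannot be read against the shares over all genes.

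The siRNA siSCD_1, in a separate deposited table fitted on its own, raised 20.9% of its 13066 genes and lowered 22% (43% in all). Of the inhibitor's 31 rises, 23 (74.2%) rose with siSCD_1 and APOLD1 fell, and of the 8 falls 3 (37.5%) fell and ERGIC1 rose. GDF15 rose by 1.87 with siSCD_1, opposite to siSCD_2, while HMGCS1 had an estimate of -0.09 that did not pass (limma adjusted p = 0.509). Of the 61 ATF4 program genes 22 rose and 9 fell with siSCD_2 (median 0.12), and 45 rose and 4 fell with siSCD_1 (median 0.96). Of the 20 cholesterol synthesis enzymes 11 rose and 1 fell with siSCD_2 (median 0.51), and 9 rose and 4 fell with siSCD_1 (median 0.18). Among all genes 18.3% rose and 19.5% fell with siSCD_2. SESN2, NUPR1, INSIG1, ASNS, CHAC1, ATF3, ATF4, LPIN1, A2M, AKNA, EGR1, IL21R and SARS rose with the inhibitor and with both siRNAs in 501mel. RNF145 fell in all 3 of these comparisons, by 0.42, 0.51 and 1.14. Across the 6682 genes above the median level, Pearson's r with the inhibitor's differences was 0.203 for siSCD_2 and 0.094 for siSCD_1.

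**Figure D4:**
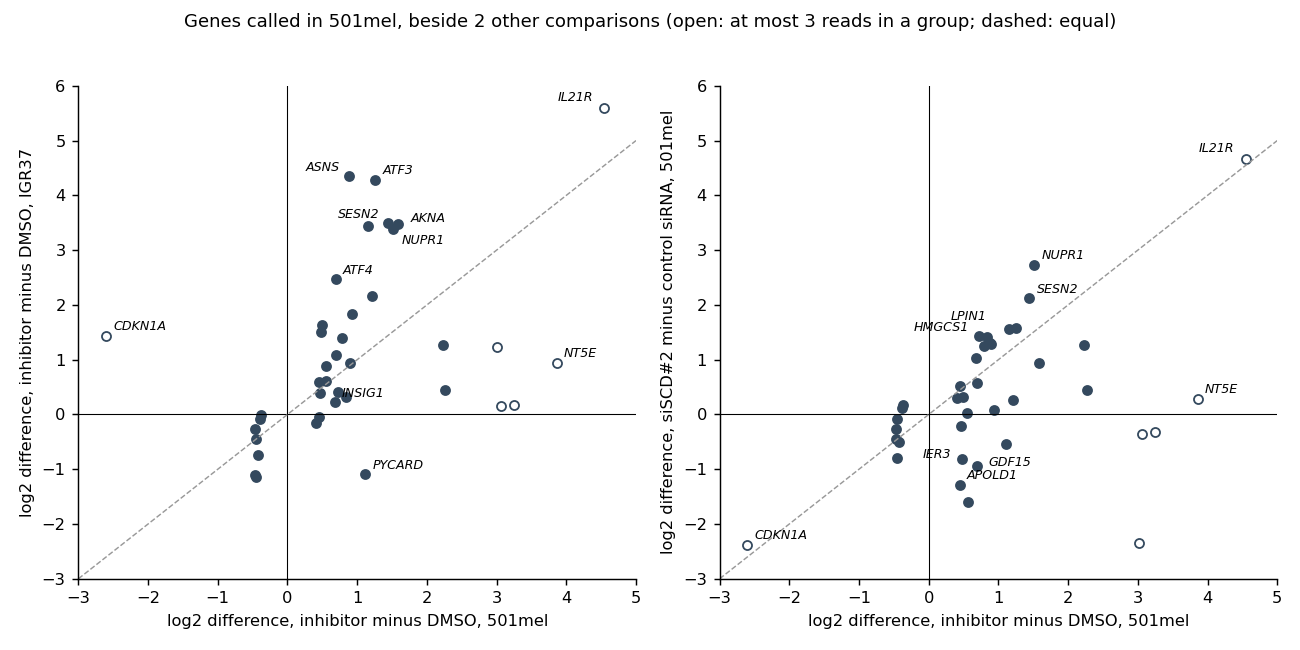
Log2 differences of the 39 called genes with the inhibitor in 501mel (horizontal axes) beside those with the inhibitor in IGR37 (left) and with siSCD_2 in 501mel (right), dashed where both would be equal. On the left 21 of the 31 rises are also called rises and ASNS, ATF3 and SESN2 lie far above the dashed line, and on the right 17 are, with APOLD1, GDF15 and IER3 below 0.

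**Figure D5:**
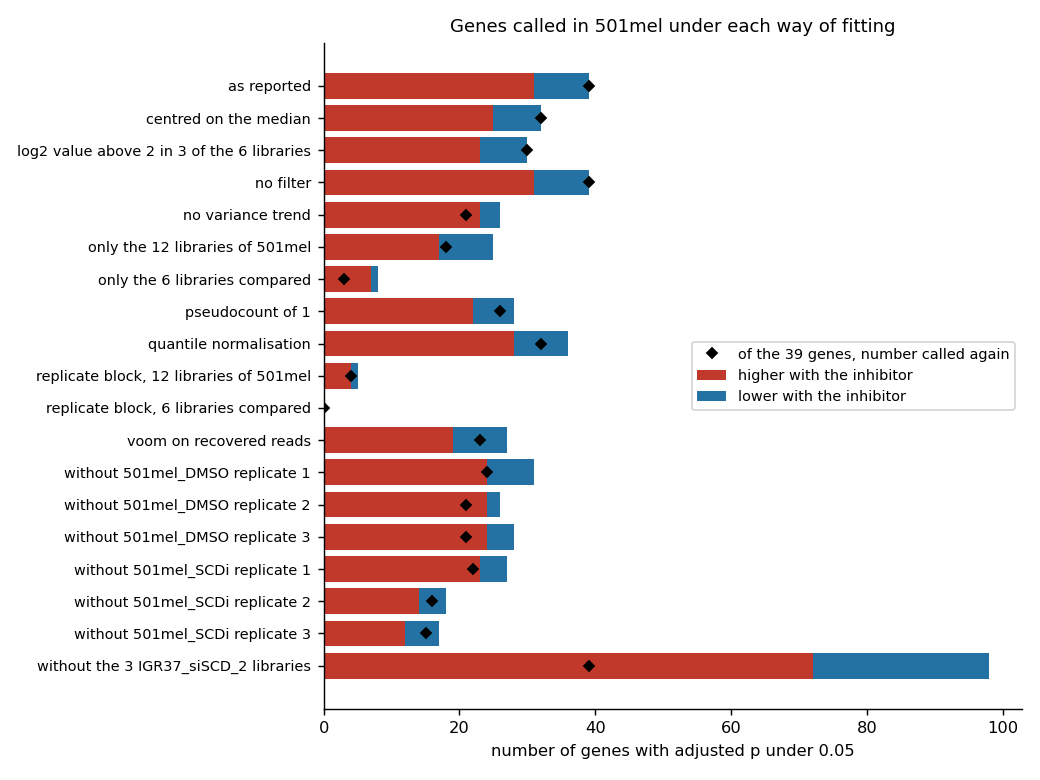
Number of genes called in 501mel, higher in red and lower in blue, as reported and under each other way of fitting, with a diamond for how many of the 39 were called again. The bars run from 0 with a replicate block on 6 libraries to 98 without the 3 IGR37_siSCD_2 libraries.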

How the data were processed

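The authors deposited log2 values per gene symbol. The submitters' processing notes name STAR, edgeR and the build hg38, with versions not given in the sources used here. Per the labels' protocols, RNA was purified with RNeasy and 500 ng entered the QuantSeq Forward kit. The deposited log2 values were log2 CPM with a prior count of 0.25, from which whole reads were recovered within 3.62e-07 reads (checked up to 1000 reads), used for totals and for voom. A low gene's log2 difference is understated by the prior count. Neither the 66 spike-ins (2.43 to 4.37% of reads) nor a Mitf-FLAG row entered any test. Spike-in shares were not used for scaling: the log2 ratio of inhibitor to DMSO shares of 38 spike-ins ran from -2.18 to 0.96. For 6 of the 38 it was under -1.5, so the spike-in makeup differed between the groups. The cause of that difference was not tested.

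Limma 3.58.1 (R 4.3.3, variance trend, 1 coefficient per group, two-sided) was fitted to the 24 libraries of the first table, with Benjamini-Hochberg adjustment over 13364 genes; siSCD_1 was fitted in the second table, of 12 libraries, alone. A filter (log2 above 0 in 3 libraries) removed 0 genes. The script was tested on simulated data. Members, the 33 gene lists, tests and naming rule were chosen with earlier results of these data known. The rule names SCD, MITF and ATF4, every called gene that is no pseudogene, antisense or unnamed gene, and the 5 largest line differences each way. From each list with no called member it names up to 3 with the smallest p. TRIB3, PSPH, PHGDH, CARS, ACAT2, FDPS, SREBF1, SREBF2, FADS2 and UBE2C are reported although the rule does not name them. Some genes that it names are not reported here. Identifiers and coordinates came from GENCODE 29 (12605 symbols found), promoters from RefSeq (GRCh38.p14, 10662 tested genes matched). Alternatives were other scaling, filters, pseudocount, spread, replicate block, voom and libraries left out. Floors and counting intervals cover counting error only, and reads carry no molecular identifiers that the sources name.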

Additional observations from a re-analysis of the deposited data

Results flagged for a closer look

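For 26 named genes the effect of the inhibitor differed between the lines by limma's test of the difference itself (adjusted p under 0.05, 3 libraries in each of 4 groups), where 27.6% of all genes passed. All of them but MITF were called by their 501mel effect, which enters this difference, so the 26 cannot be read against that share. Values are log2 effects in IGR37 minus those in 501mel. The effect was higher in IGR37 for the ATF4 program genes ASNS (3.47), ATF3 (3.03), CHAC1 (2.28), SESN2 (2.05), NUPR1 (1.87), ATF4 (1.78), SARS (1.15), DDIT4 (0.90) and GDF15 (0.39). It was also higher for AKNA (1.89), IER3 (1.03), TSC22D3 (0.95) and A2M (0.60). Of the genes that fell in 501mel 2 had a higher effect in IGR37: HNRNPA0 (0.37), with an estimate in IGR37 near 0, and CDKN1A (4.04), which rose there.

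The effect was lower in IGR37 for the rises PYCARD (-2.21), which fell in IGR37, ETFB (-0.55), APOLD1 (-0.50) and INSIG1 (-0.45), none of which rose there. It was lower for FAM83H (-3.08), NT5E (-2.91) and SERPINB1 (-2.91), whose 501mel calls rest on 0 to 2 reads under DMSO. RCC1 (-0.64), ERGIC1 (-0.69) and RNF145 (-0.32) fell in both lines and by more in IGR37. MITF (-0.89) fell in IGR37 while its 501mel interval spanned 0.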

How the results depend on the processing

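No estimate of the 95 genes followed changed sign among called genes: of 1698 values under 18 alternatives, 1412 kept their side of the threshold, 278 no longer passed and 8 newly passed. The 95 leave out genes reported from outside the naming rule, such as ACAT2 and TRIB3. GDF15 and INSIG1 were the genes called in all 16 alternatives without a block, and SESN2, NUPR1, DDIT4 and RNF145 were called in 15. As reported 31 genes rose and 8 fell. The rises numbered 17 with only the 12 libraries of 501mel, 7 with only the 6 compared, 19 with voom and 72 without the 3 IGR37_siSCD_2 libraries (chosen after seeing the data), and 12 to 24 with 1 library left out. The falls numbered 3 with no variance trend, 1 with only the 6 libraries, 26 without the IGR37_siSCD_2 libraries, and 2 to 7 with 1 library left out. The called genes shared with IGR37 numbered 26 as reported, 14 with no trend, 4 with 6 libraries, 67 without IGR37_siSCD_2 and 8 to 18 with 1 library left out. Those shared with siSCD_2 numbered 22 as reported, 13, 2, 47 and 8 to 15 in the same order. The cause of these moves was not tested. Fits with fewer libraries have fewer degrees of freedom, including the fit without IGR37_siSCD_2, in which these counts were higher.

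With the replicate block 4 genes rose and 1 fell in the 12 libraries of 501mel, 3 of them shared with siSCD_2. With the block on 6 libraries limma called 0 up and 0 down, with 1814 genes at an unadjusted p under 0.05. Same-numbered libraries had correlations of deviations of 0.034, 0.252 and 0.182, and those of unlike number had -0.275 to 0.139. Each inhibitor library correlated best with the DMSO library of its own number. The reported fit did not take the numbers as pairs, and these correlations do not settle whether they mark pairs. Depth limits genes near 0.461 to 0.622 CPM, where 3 reads decide a call.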

Other observations

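The largest differences between the lines, among genes above the median level, lay, apart from ASNS, in genes that did not pass in 501mel. SLC7A11, the cystine carrier, had 6.98, 6.81 and 6.96 under DMSO and 7.18, 7.15 and 7.25 with the inhibitor in 501mel, an estimate of 0.27 that did not pass, while in IGR37 it went from 4.95, 4.90 and 4.69 to 9.25, 9.20 and 9.18. The effect was higher in IGR37 by 4.09 for SLC7A11, 3.55 for DDIT3, 3.48 for the NF-kB subunit RELB and 3.08 for the AP-1 factor JUN, all past the limma threshold. The difference was -3.09 for PI15, -2.85 for the PI3-kinase subunit PIK3R3, and -2.58, -2.28 and -2.26 for ATAD3B, MARCKSL1 and SGTA. In 501mel the estimates of PI15 and RELB were -0.06 and -0.07.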
